A study of Homo sapiens with 16 samples.

Results

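The genes described here are 10 targets of β-catenin-dependent Wnt signaling whose products act back on the pathway or on its receptors: AXIN2, NKD1, NKD2, RNF43, ZNRF3, NOTUM, SP5, LGR5, LGR6 and TNFRSF19. They were taken by name and matched by symbol to Ensembl identifiers; all 10 were found among the 57820 genes of the count files. Each passed the filter on low counts in both serum conditions, in which 16069 (low serum) and 15414 (standard serum) protein-coding genes were tested. The filter summed over 8 libraries, so a gene could pass through 1 cell line alone.

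RNA was sequenced from sublines of MDA-MB-231 and MDA-MB-436, which are established lines of triple-negative breast cancer (TNBC) with mesenchymal features. All cells carried the stably integrated 7TGP vector, in which TCF binding sites drive eGFP, and had been selected with puromycin. In each line, repeated fluorescence sorting and expansion gave a Wnt reporter-positive subline (7TGP-POS, the brightest eGFP-positive cells) and a reporter-negative subline (7TGP-NEG). Each subline is a single sorted population, and eGFP is not a row of the files, so reporter status could not be checked there. The cells were grown in 0.5% serum for 3 days (low serum) or 10% serum for 6 days (standard serum), which gave 8 groups of 2 replicates and 16 libraries. According to the study's methods the low serum libraries were depleted of ribosomal RNA and the standard serum libraries were selected for poly(A), so that serum, days in culture, library preparation and sequencer cannot be told apart. Values of both serum conditions are therefore given side by side with no test between them.

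Libraries held 27918418 to 32667756 counted read pairs in low serum and 31827130 to 46044073 in standard serum. Replicates correlated with r of 0.994 to 0.997 across genes, but differed by more than sampling noise in all 8 groups, most so in the standard serum libraries of MDA-MB-436 7TGP-POS. Nothing in the labels says that replicates came from separate sorts, so p-values measure the spread between these libraries. Of the 8 mesenchymal markers, 5 exceeded 1 TPM (the deposited level, scaled to gene length and library size) in each of the 16 libraries, VIM among them. CDH2, TWIST1 and SPARC did not. Over both conditions CDH2 ran from 0.15 to 186.6 TPM, TWIST1 from 0 to 55.2 TPM and SPARC from 0.39 to 5.76 TPM. VIM was called lower in MDA-MB-231 7TGP-POS cells in low serum (log2 fold change -1.05) and standard serum (-1.03). FN1 was called lower there in standard serum (-2.14) and higher in MDA-MB-436 in low serum (1.37). SPARC was called higher in MDA-MB-436 under both conditions (2.97 and 2.78) and in MDA-MB-231 in standard serum (1.33). The summed level of the 8 mesenchymal markers in MDA-MB-231 was 1298 and 1156 TPM in 7TGP-POS against 2691 and 2627 TPM in 7TGP-NEG libraries in low serum, and 2070 and 1992 against 4318 and 3911 TPM in standard serum. In MDA-MB-436 it was 598 and 658 against 654 and 609 TPM in low serum, where the groups overlapped, and 1052 and 1099 against 674 and 729 TPM in standard serum. VIM was the largest part of each sum, at 369 to 2454 TPM in low serum and 484 to 3882 TPM in standard serum. The MDA-MB-231 sums therefore mainly follow VIM. Of the 8 epithelial markers, EPCAM and CLDN4 exceeded 1 TPM in each library, and the summed level ran from 11.6 to 23.98 TPM in MDA-MB-436 and from 66.96 to 175.3 TPM in MDA-MB-231, where CLDN7 reached 132.8 TPM; CDH1, the epithelial cadherin, stayed at or below 0.15 TPM. Lower calls in 7TGP-POS cells were those of CLDN3 (MDA-MB-231, low serum, log2 fold change -1.02), ESRP1 (MDA-MB-231, standard serum, -1.08) and CLDN4 (MDA-MB-436, standard serum, -1.21). ERBB2, which encodes HER2, was at 16.9 to 27.8 TPM, while ESR1 and PGR were at or below 0.19 and 0.2 TPM. At those levels ESR1 was called higher in MDA-MB-231 7TGP-POS cells in standard serum (20 and 25 counts against 0 and 0) and PGR lower in MDA-MB-436 in low serum (6 and 9 against 32 and 27). Of 4 leukocyte markers, 3 stayed below 1 TPM throughout. PTPRC, the remaining one, reached 4.04 TPM in MDA-MB-231 and was counted 125 and 121 times in 7TGP-POS against 56 and 61 times in 7TGP-NEG cells in low serum (log2 fold change 1.14, adjusted p = 3.61e-06 by edgeR's quasi-likelihood test). The part of these marker differences in the results below was not tested.

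As background, canonical Wnt signaling begins when a Wnt ligand joins a Frizzled receptor to LRP5 or LRP6, which spares β-catenin from destruction and lets it activate genes with TCF/LEF factors. Many of the induced genes then restrain the signal. AXIN2 is a scaffold of the complex that destroys β-catenin, NKD1 and NKD2 bind Dishevelled, RNF43 and ZNRF3 are ubiquitin ligases that remove Frizzled from the cell surface, NOTUM cleaves the lipid from Wnt ligands, and SP5 is a transcription factor that competes at Wnt target genes. LGR5 and LGR6 bind R-spondins, which neutralize the 2 ligases and so raise receptor levels, and TNFRSF19 (TROY) is a TNF-receptor family member found with LGR5 in intestinal stem cells.

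TCF/LEF factors recognize a short DNA motif, so the promoter windows of the members were searched for it. The RefSeq promoter table (GRCh38.p14, 250 bases before to 50 bases after a gene's start) held windows for 5 of the 10 genes: LGR6, SP5, NKD2, TNFRSF19 and RNF43. ATCAAAG or TTCAAAG on either strand was present in 6.86% of the 35116 promoters of this length. SP5 was the member with matches, 3 in its single window, a number reached by 9 promoters of the table (0.0256%). The window of NKD2, the most abundant member in MDA-MB-436 7TGP-NEG cells, held none. Both are shown for that contrast, with SP5 at chr2:170715087-170715386 (plus strand) and NKD2 at chr5:1008552-1008851 (plus strand), and capitals mark the matched letters.
SP5: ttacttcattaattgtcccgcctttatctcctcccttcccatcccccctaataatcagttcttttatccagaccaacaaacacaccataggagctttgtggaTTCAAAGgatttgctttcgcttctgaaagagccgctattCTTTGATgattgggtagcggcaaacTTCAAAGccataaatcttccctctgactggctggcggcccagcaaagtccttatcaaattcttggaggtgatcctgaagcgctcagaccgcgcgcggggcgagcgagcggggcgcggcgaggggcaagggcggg
NKD2: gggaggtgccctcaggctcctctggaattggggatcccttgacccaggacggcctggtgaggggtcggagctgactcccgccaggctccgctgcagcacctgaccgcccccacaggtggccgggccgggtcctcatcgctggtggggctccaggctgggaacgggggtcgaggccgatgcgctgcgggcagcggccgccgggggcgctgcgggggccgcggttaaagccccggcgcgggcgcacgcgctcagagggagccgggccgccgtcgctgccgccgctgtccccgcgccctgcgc
The second SP5 match is ATCAAAG on the opposite strand and therefore reads CTTTGAT here. A match is a description of letters in this window, and the values of SP5 in the 4 comparisons are given below.

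In MDA-MB-231, reporter-positive cells had more mRNA for the R-spondin receptors LGR5 and LGR6 in low serum, with LGR6 14.6-fold and LGR5 2.63-fold higher. A gene was called when its adjusted p was under 0.05 and its absolute log2 fold change at least 1. By this rule 2 of the 10 genes were called higher and 0 lower, against 3.5% of all tested genes called higher and 2.4% called lower; SP5 alone was lower at an unadjusted p under 0.05, and DESeq2 also called 0 lower. In standard serum, LGR6, RNF43 and TNFRSF19 were called higher (3 of 10) and 0 lower. Over all genes, 4.96% were called higher there and 2.72% lower. At an unadjusted p under 0.05 in edgeR, 0 members were lower. DESeq2 called 0 lower and 2 higher, without LGR6 (adjusted p = 0.212 in DESeq2). In MDA-MB-436 the calls went in both directions. LGR6 and TNFRSF19 were called higher and NKD1 and NKD2 lower in low serum, where the shares over all genes were 6.52% higher and 4.03% lower. In standard serum TNFRSF19 was called higher and NKD2, SP5 and RNF43 lower, beside 6.47% and 6.06% of all genes. The median log2 fold change over the members was 0.49 and 0.21 in MDA-MB-231 (low and standard serum) and -0.09 and -0.63 in MDA-MB-436, while that over all tested genes lay between -0.01 and 0.01. The MDA-MB-231 medians include NKD1, NKD2 and NOTUM, which were near 0 counts there, and were 0.65 and 0.33 over the 7 other genes. The MDA-MB-436 median in standard serum includes RNF43, which had 1 and 3 counts in 7TGP-POS libraries, and was -0.53 over the 9 other genes. On the log2(TPM + 1) scale, which compresses genes at these levels, limma-trend kept the calls of LGR6 in MDA-MB-231 in low serum, of NKD2 in MDA-MB-436 in both conditions and of TNFRSF19 in MDA-MB-436 in standard serum, and the others were lost. As these are bulk samples, a difference in the share of cells that express a gene and a difference in RNA per cell cannot be told apart.

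**Figure D1:**
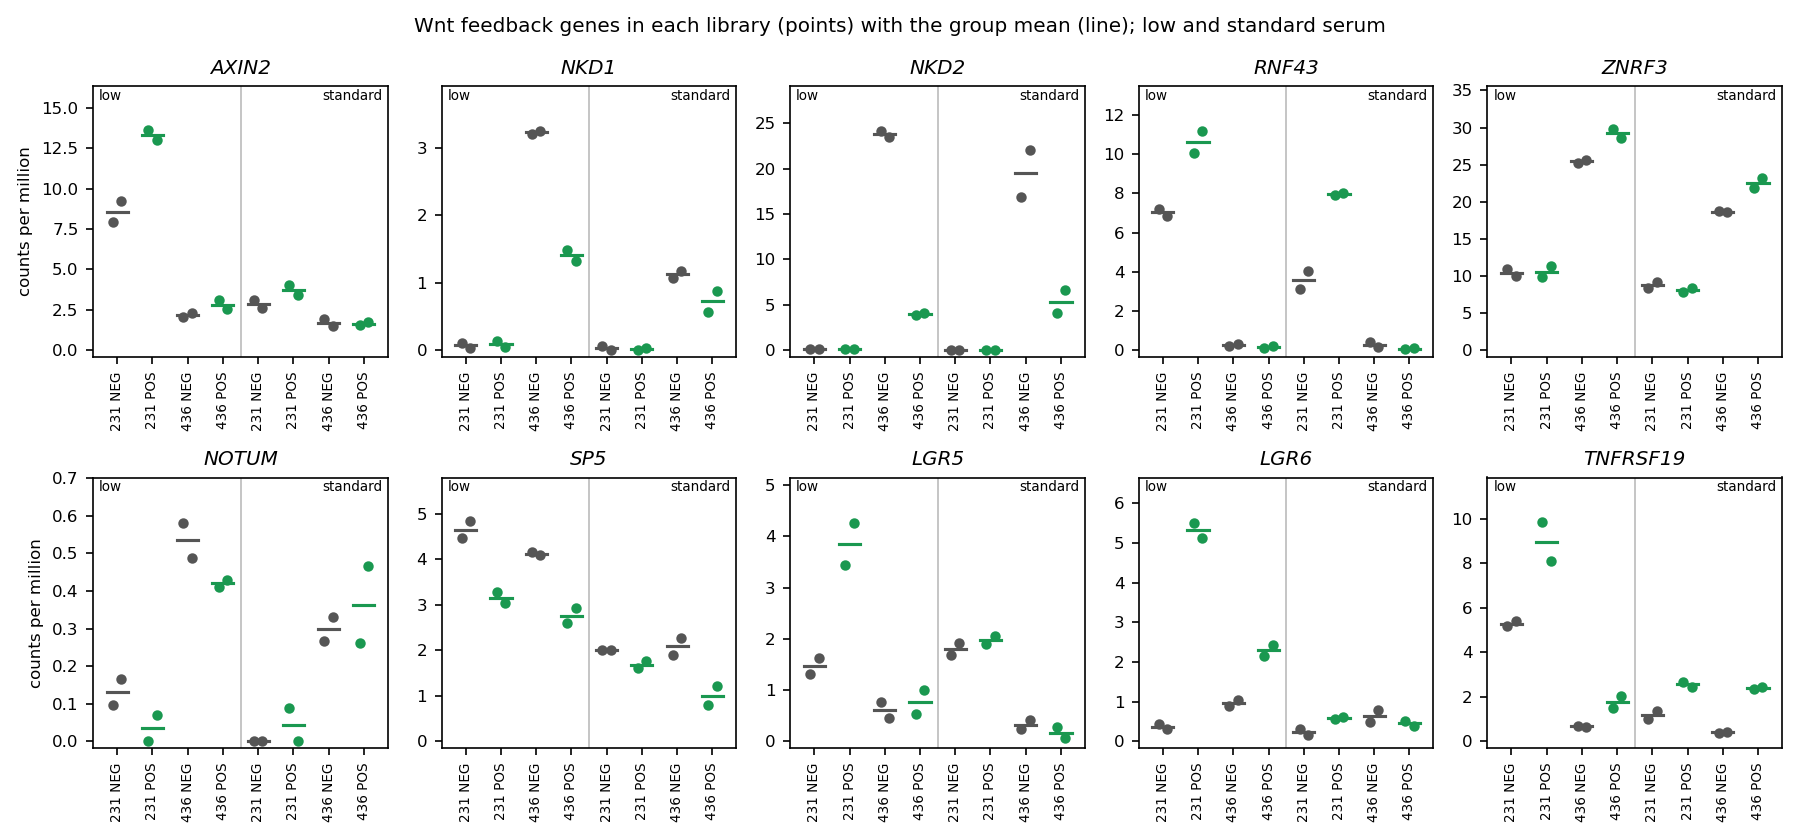
Counts scaled to library size (CPM) of each of the 10 genes (vertical axis, linear and separate for each gene) in the 8 groups, with a point for each library and a line at the group mean; low serum is left of the grey line and standard serum right of it, grey marks NEG and green POS. LGR6 rose from 0.36 to 5.31 CPM in MDA-MB-231 in low serum, whereas NKD2 fell from 23.8 to 3.97 in MDA-MB-436.

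AXIN2 (ENSG00000168646, chr17:63524681-63557766, GRCh37) is the feedback scaffold most often read as a measure of Wnt activity. In MDA-MB-231 in low serum it was counted 244 and 276 times in 7TGP-NEG and 408 and 370 times in 7TGP-POS libraries, which do not overlap. The log2 fold change was 0.65 ± 0.11 (SE; edgeR's quasi-likelihood test, adjusted p = 8.29e-06), a 1.56-fold difference that passed the p threshold but not the fold threshold. In standard serum the counts were 111 and 83 against 135 and 123, with a log2 fold change of 0.33 ± 0.19 and an adjusted p of 0.21 in edgeR. MDA-MB-436 libraries held fewer AXIN2 reads. They held 67 and 66 in 7TGP-NEG against 97 and 70 in 7TGP-POS in low serum (log2 fold change 0.36 ± 0.18, adjusted p = 0.106 in edgeR). In standard serum, 65 and 57 counts stood against 70 and 62, a log2 fold change of -0.12 ± 0.22 whose adjusted p was 0.684 in edgeR. AXIN2 was thus called in 0 of 4 comparisons. Its paralog AXIN1, the constitutive scaffold, was also called in 0 of 4, with log2 fold changes between -0.27 and 0.36, and had the higher level of the pair in each group: in MDA-MB-231 7TGP-NEG cells in low serum it was at 11.1 ± 0.30 TPM beside 4.09 ± 0.45 TPM for AXIN2 (SD, n = 2).

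NKD1 and NKD2, the Dishevelled inhibitors, were almost silent in MDA-MB-231. In the reporter-positive cells of MDA-MB-436, NKD2 was lower in both serum conditions and NKD1 in low serum. NKD2 (ENSG00000145506, chr5:1008917-1039058) had 788 and 674 counts in MDA-MB-436 7TGP-NEG and 122 and 114 counts in 7TGP-POS libraries when serum was low. Its log2 fold change was -2.60 ± 0.12, with an adjusted p of 4.38e-22 in edgeR. In standard serum it had 569 and 865 against 186 and 241 counts, a log2 fold change of -1.94 ± 0.27 (edgeR, adjusted p = 0.00406). Positive and negative libraries did not overlap in either condition. MDA-MB-231 libraries held 1 to 4 NKD2 reads each in low serum and 0 in each of the 4 standard serum libraries, too few for a comparison.

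NKD1 (ENSG00000140807, chr16:50582307-50683160) followed at a lower level. In MDA-MB-436 in low serum, 105 and 93 counts in 7TGP-NEG stood against 47 and 37 in 7TGP-POS libraries. The log2 fold change was -1.21 ± 0.22 (adjusted p = 1.00e-05 in edgeR). In standard serum the counts were 36 and 46 against 26 and 32. These did not overlap after scaling to library size either, but the log2 fold change of -0.72 ± 0.33 did not pass (adjusted p = 0.0823 in edgeR). In MDA-MB-231, NKD1 had between 0 and 4 counts in each of 8 libraries. Summed over both replicates, low serum gave 5 counts in 7TGP-POS and 4 in 7TGP-NEG, a ratio of 1.30 with a 95% counting interval of 0.28 to 6.55, which leaves a difference in either direction undetectable at this depth.

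The genes around NKD2 moved with it. Among the 50 tested genes nearest to NKD2 on chromosome 5 with a mean of at least 1 CPM (the count scaled to library size), which reached 31.3 Mb away, 49 had a negative log2 fold change in MDA-MB-436 in low serum and 34 were called lower. Their median was -1.33 (quartiles -1.57 and -0.88), so that NKD2 lay 1.27 log2 units below it and 1 neighbor lay lower than NKD2. In standard serum the neighbors' median was again -1.33, with 49 of 50 negative and 37 called lower; NKD2 lay 0.61 log2 units below that median, and 4 neighbors were lower still. In MDA-MB-231 the same region had medians of 0.31 and 0.35. For the 9 other members the medians of the 50 neighbors lay between -0.38 and 0.23 over the 4 comparisons. In MDA-MB-436 the lowest of these were those of SP5, at -0.37 in low serum and -0.30 in standard serum. Whether the shift around NKD2 accounts for its fall was not tested. NKD1 lies on another chromosome, where the neighbors' median was 0.15 in low serum and 0.10 in standard serum in MDA-MB-436.

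**Figure D2:**
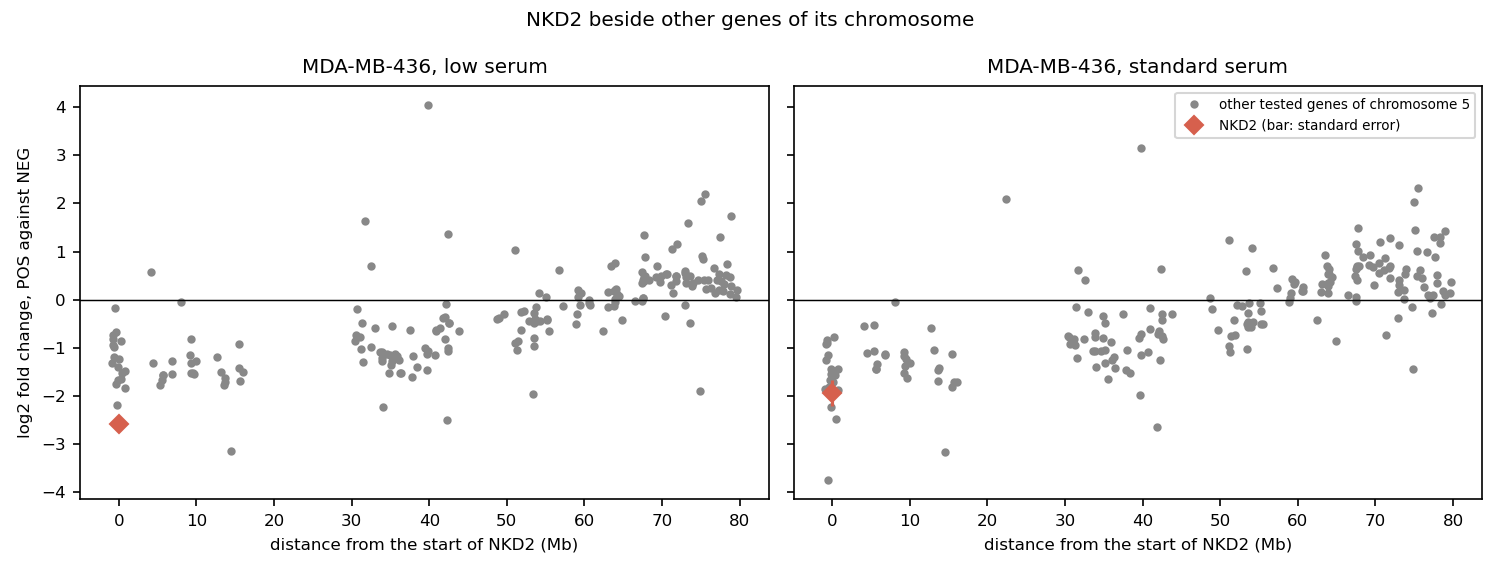
Log2 fold change, POS against NEG, in MDA-MB-436 (vertical axis) against the distance from the start of NKD2 in megabases (horizontal axis); grey points are other tested genes of chromosome 5 with a mean of at least 1 CPM within 80 Mb, and the diamond is NKD2 with its standard error. Most genes within about 40 Mb lie below 0 in both serum conditions, around a median of -1.33 for the nearest 50.

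RNF43 and ZNRF3 encode related ligases but behaved differently. RNF43 (ENSG00000108375, chr17:56431037-56494956) was counted 221 and 205 times in MDA-MB-231 7TGP-NEG and 301 and 317 times in 7TGP-POS libraries in low serum. Its log2 fold change there was 0.60 ± 0.12 (adjusted p = 9.15e-05 in edgeR), under the fold threshold. In standard serum, 112 and 129 counts rose to 267 and 287, a 2.15-fold increase (log2 fold change 1.11 ± 0.19, adjusted p = 0.000166 in edgeR). Without replicate 1 of 7TGP-NEG it was 0.93, below the fold threshold. MDA-MB-436 libraries were near the floor for RNF43. Low serum gave 7 and 8 counts against 3 and 5, with a log2 fold change of -0.86 ± 0.61 and an adjusted p of 0.253 in edgeR. In standard serum 13 and 6 counts in 7TGP-NEG stood against 1 and 3 in 7TGP-POS libraries. This was called lower (adjusted p = 0.00828 in edgeR), but rests on 19 reads against 4: scaled to library size, 7TGP-NEG was 5.37-fold above 7TGP-POS with a 95% counting interval of 1.79 to 21.7. The call was lost without replicate 1 of 7TGP-POS (adjusted p = 0.106) or replicate 1 of 7TGP-NEG (0.153) in the same edgeR model.

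ZNRF3 (ENSG00000183579, chr22:29279560-29453476) was the steadiest of the members between reporter states, with log2 fold changes between -0.16 and 0.21 and 0 calls in 4 comparisons. Its MDA-MB-231 counts were 334 and 297 against 295 and 319 in low serum and 301 and 290 against 262 and 300 in standard serum, and these overlap. In MDA-MB-436, 825 and 735 counts stood against 945 and 797 in low serum (log2 fold change 0.19 ± 0.08, adjusted p = 0.0417 in edgeR). The adjusted p of this low serum difference was 0.286 in DESeq2. Limma-trend gave it a log2 fold change of -0.06 on both log2(TPM + 1) and log2(TPM + 0.1). In standard serum the MDA-MB-436 counts were 631 and 728 against 1003 and 844, with 0.21 ± 0.10 and an adjusted p of 0.0764 in edgeR.

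NOTUM (ENSG00000185269, chr17:79910383-79919716), the secreted Wnt deacylase, was scarce throughout, with at most 19 counts in a library. MDA-MB-436 held 19 and 14 counts in 7TGP-NEG and 13 and 12 in 7TGP-POS libraries in low serum, and 9 and 13 against 12 and 17 in standard serum. Neither comparison passed (edgeR, adjusted p = 0.535 and 0.818). In MDA-MB-231 it had 3 and 5 counts against 0 and 2 in low serum. Standard serum gave 0 and 0 counts against 3 and 0, and no fold is given.

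SP5 (ENSG00000204335, chr2:171571847-171574588), the member with 3 motif matches in its promoter window, had a negative log2 fold change in each comparison, and its groups did not overlap in any of the 4. MDA-MB-231 had 137 and 145 counts against 98 and 86 in low serum, with a log2 fold change of -0.55 ± 0.16 (adjusted p = 0.00459 in edgeR). MDA-MB-436 had 136 and 117 against 82 and 82, a log2 fold change of -0.59 ± 0.16 (adjusted p = 0.0024 in edgeR). Both passed the p threshold alone. In standard serum the MDA-MB-231 counts were 73 and 64 against 54 and 63, with -0.31 ± 0.23 and an adjusted p of 0.326 in edgeR. In MDA-MB-436 they were 64 and 89 against 37 and 44, and this decrease was called (log2 fold change -1.13 ± 0.24, adjusted p = 0.000644 in edgeR). Without replicate 1 of 7TGP-POS it was -0.87 and fell short of the fold threshold. Of the 50 neighbors of SP5 in MDA-MB-436, 39 were negative in low serum (median -0.37) and 36 in standard serum (median -0.30). In low serum 11 of them lay below SP5, and in standard serum 5. Whether this shift plays a part in the decrease of SP5 was not tested. SP8, a close relative of SP5, was detected in MDA-MB-436 and called lower in both serum conditions there. Its counts were 486 and 485 against 102 and 107 in low serum (log2 fold change -2.19 ± 0.13) and 148 and 217 against 22 and 20 in standard serum (-3.33 ± 0.25).

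LGR6 (ENSG00000133067, chr1:202162927-202288909) had the largest increase of any member. In low serum MDA-MB-231 libraries had 13 and 9 counts in 7TGP-NEG and 165 and 145 in 7TGP-POS cells. The log2 fold change was 3.87 ± 0.25 with an adjusted p of 2.68e-16 in edgeR. MDA-MB-436 had 29 and 30 counts against 68 and 68, a 2.35-fold increase (log2 fold change 1.23 ± 0.24, adjusted p = 3.04e-05 in edgeR). Its log2 fold change was 0.89 under limma-trend on log2(TPM + 0.1). In standard serum counts were low in both lines. MDA-MB-231 had 11 and 5 against 19 and 22, which was called with little margin (log2 fold change 1.26 ± 0.46, adjusted p = 0.0446 in edgeR). The call was lost in DESeq2 (adjusted p = 0.212) and when any 1 of 3 of the 4 libraries was left out; without replicate 2 of 7TGP-NEG the edgeR log2 fold change was 0.88. MDA-MB-436 had 16 and 31 against 24 and 14, which overlap (log2 fold change -0.53 ± 0.38, adjusted p = 0.261 in edgeR).

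LGR5 (ENSG00000139292, chr12:71833578-71980090) rose in MDA-MB-231 in low serum, from 40 and 49 counts to 103 and 121. Its log2 fold change was 1.40 ± 0.22, with an adjusted p of 1.75e-06 in edgeR. In standard serum the counts were 61 and 61 against 64 and 74, with 0.09 ± 0.27 (adjusted p = 0.863 in edgeR). MDA-MB-436 had 25 and 13 counts against 17 and 28 in low serum, and 8 and 16 against 13 and 2 in standard serum, which overlap in both conditions (edgeR, adjusted p = 0.563 and 0.184). TSPAN8 overlaps LGR5 on the opposite strand and moved the other way in MDA-MB-231, with 363 and 365 counts in 7TGP-NEG against 171 and 180 in 7TGP-POS libraries in low serum. The libraries were stranded, but the strand setting of the counting is not given in the sources used here. LGR4, the third R-spondin receptor of this family, had the highest level of the family: in MDA-MB-231 7TGP-POS cells in low serum it stood at 27.7 ± 1.53 TPM beside 2.52 ± 0.33 for LGR6 and 1.58 ± 0.11 for LGR5 (SD, n = 2). LGR4 was called in 0 of 4 comparisons, with log2 fold changes from -0.71 to -0.04; in MDA-MB-231 in low serum, where LGR5 and LGR6 rose, its value was -0.18 ± 0.06 (adjusted p = 0.0108 in edgeR).

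TNFRSF19 (ENSG00000127863, chr13:24144509-24250243) was the member with a positive log2 fold change in each of the 4 comparisons, and its groups never overlapped. In MDA-MB-231 in low serum, 158 and 162 counts stood against 294 and 229, a log2 fold change of 0.77 ± 0.13 (adjusted p = 8.37e-06 in edgeR) that did not reach the fold threshold. Standard serum gave 36 and 43 against 90 and 88, a 2.12-fold increase (log2 fold change 1.08 ± 0.23, adjusted p = 0.001 in edgeR). It was 0.88 without replicate 1 of 7TGP-NEG. In MDA-MB-436 it rose from 23 and 18 counts to 48 and 57 in low serum, with a log2 fold change of 1.38 ± 0.27 and an adjusted p of 3.53e-05 in edgeR (0.97 under limma-trend on log2(TPM + 0.1)). The increase in standard serum, from 13 and 17 to 108 and 88 counts, was 5.52-fold (log2 fold change 2.47 ± 0.27, adjusted p = 5.15e-07 in edgeR). Across the 4 comparisons LGR6 and TNFRSF19 were each called higher in 3, LGR5 in 1, NKD2 lower in 2, and NKD1 and SP5 lower in 1, while RNF43 was called once in each direction.

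**Figure D3:**
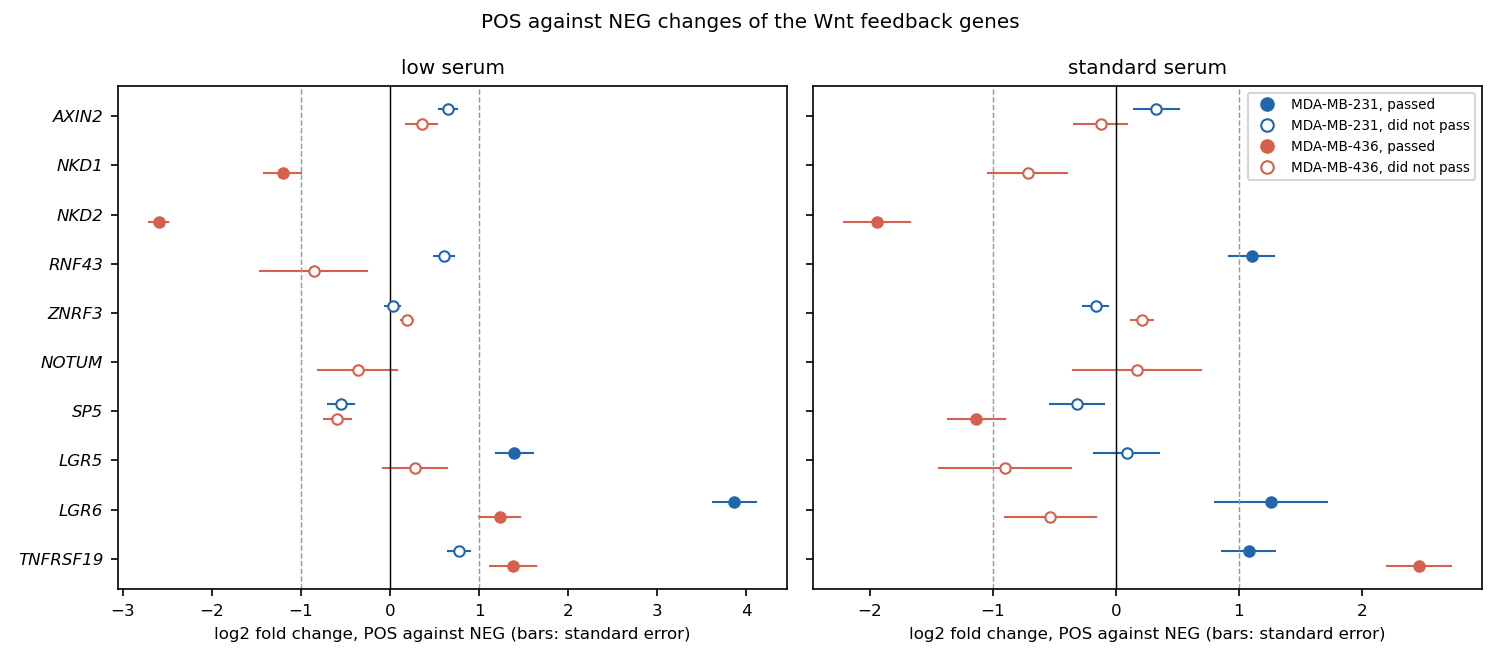
Log2 fold change, POS against NEG (horizontal axis, bars are standard errors), of the members in MDA-MB-231 (blue) and MDA-MB-436 (red) in both serum conditions; filled points passed both thresholds, dashed lines mark a log2 fold change of 1 in either direction, and comparisons in which each library of a group had 3 counts or fewer are not drawn. LGR6 in MDA-MB-231 in low serum (3.87) and NKD2 in MDA-MB-436 (-2.60) are the farthest from 0.

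The difference between the lines was tested as an interaction, the log2 fold change in MDA-MB-231 minus that in MDA-MB-436 in the same edgeR model. In low serum 3 of the 10 genes were called, beside 11.7% of all tested genes. LGR6 rose more in MDA-MB-231, by 2.63 ± 0.39 log2 units (adjusted p = 4.34e-07 in edgeR). For LGR5 the difference was 1.12 ± 0.44 (adjusted p = 0.0345 in edgeR), a call lost when any 1 of 4 of the 8 libraries was left out and in DESeq2 (adjusted p = 0.0962). NKD2 was called as well, at 2.97 ± 0.99 (adjusted p = 0.0123 in edgeR), but its MDA-MB-231 side rests on 9 reads in 4 libraries; without replicate 1 of MDA-MB-231 7TGP-POS the adjusted p was 0.467. In standard serum 3 of 10 were called, beside 13.8% of all genes. RNF43 differed by 3.50 ± 0.71 (adjusted p = 0.000656 in edgeR), being higher in reporter-positive MDA-MB-231 and lower in reporter-positive MDA-MB-436 cells. TNFRSF19 rose more in MDA-MB-436, with an interaction of -1.39 ± 0.36 (adjusted p = 0.00497 in edgeR). LGR6 differed by 1.80 ± 0.60 (adjusted p = 0.0228 in edgeR), which was lost in DESeq2 (adjusted p = 0.15) and when any 1 of 4 of the 8 libraries was left out. For AXIN2 the interaction was 0.29 ± 0.22 and 0.45 ± 0.29 and did not pass in either condition.

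The cell lines differed in which of these genes they expressed. The study's methods give each line its own medium, while the labels name 1 medium for all, so line and medium cannot be told apart here. Compared on the per-length TPM scale in 7TGP-NEG cells in low serum, the order in MDA-MB-231 was SP5 (5.59 ± 0.36 TPM, SD, n = 2), AXIN2 (4.09 ± 0.45), ZNRF3 (3.69 ± 0.21), TNFRSF19 (2.56 ± 0.11) and RNF43 (2.32 ± 0.06), with the other members below 1 TPM. AXIN2 and ZNRF3 are neighbors in that order whose libraries overlap (3.77 and 4.41 TPM against 3.84 and 3.54). In MDA-MB-436 NKD2 led with 24.1 ± 1.86 TPM, followed by ZNRF3 (11.1 ± 0.54), SP5 (6.10 ± 0.45), NKD1 (2.00 ± 0.10) and AXIN2 (1.27 ± 0.03). The remaining members were below 1 TPM, and LGR5 (0.46 and 0.25 TPM) and TNFRSF19 (0.44 and 0.36 TPM) overlapped among them. NKD2 led in standard serum too, at 23.7 ± 4.79 TPM, while it was listed at 0 in MDA-MB-231.

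Tested per gene, MDA-MB-436 7TGP-NEG against MDA-MB-231 7TGP-NEG gave calls for 9 members in low serum, 5 higher and 4 lower, where 21.4% of all genes were called higher and 20.5% lower. In standard serum 4 were called higher and 3 lower, beside 25.4% and 21.3% of all genes. RNF43 was lower in MDA-MB-436, with log2 fold changes of -4.92 ± 0.25 (low serum) and -3.95 ± 0.31 (standard serum). Those of TNFRSF19 were -3.08 ± 0.22 and -1.70 ± 0.30, and those of LGR5 -1.34 ± 0.32 and -2.65 ± 0.36. AXIN2 was lower in low serum (-2.09 ± 0.15), and its difference in standard serum (-0.96 ± 0.21) passed the p threshold alone. The adjusted p of these decreases lay between 2.12e-21 and 0.000414 in edgeR.

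Higher in MDA-MB-436 were the NKD genes, NOTUM, LGR6 and, in low serum, ZNRF3. Since MDA-MB-231 was at or under 3 reads per library for both NKD genes, their ratios are given on summed counts with 95% counting intervals. For NKD2 the ratio was 361 (141 to 1328) in low serum; in standard serum 1434 reads against 0 make it at least 446-fold higher, taking 3 reads over the group as the floor. For NKD1 it was 48.9 (18.8 to 181) and 38.3 (10.3 to 321). NOTUM was higher by 1.89 ± 0.59 log2 units in low serum (adjusted p = 0.00395 in edgeR; 0.0506 without replicate 1 of MDA-MB-231) and at least 6.84-fold higher in standard serum. LGR6 was higher by 1.29 ± 0.36 and 1.23 ± 0.46, the latter lost in DESeq2 (adjusted p = 0.124) and without replicate 2 of either group. ZNRF3 was higher by 1.19 ± 0.09 in low serum and by 0.89 ± 0.10 in standard serum, under the fold threshold. SP5 did not pass in either condition (log2 fold change -0.28 ± 0.15 and -0.15 ± 0.22).

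**Figure D4:**
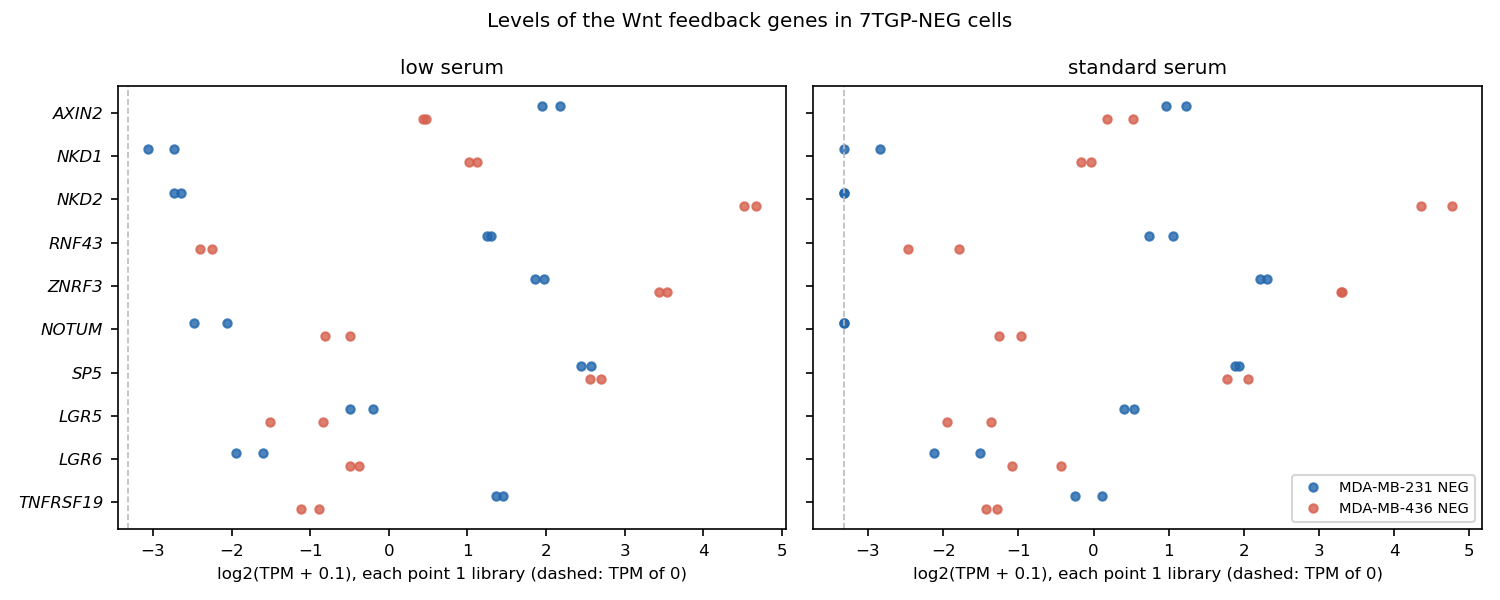
Level of each member in 7TGP-NEG cells as log2(TPM + 0.1) (horizontal axis), with a point for each library of MDA-MB-231 (blue) and MDA-MB-436 (red) in low and standard serum and a dashed line at a TPM of 0. NKD2 is highest in MDA-MB-436 and near or at 0 in MDA-MB-231, RNF43 shows the opposite order, and SP5 overlaps or nearly does.

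The rest of the pathway was read from lists of named genes. Among 22 tested other TCF/LEF target genes in low serum (21 in standard serum), MDA-MB-231 had 1 called higher under low serum and 0 under standard serum, and 0 lower under either. DESeq2 gave the same numbers, and 10 were higher and 4 lower in low serum and 3 higher and 8 lower in standard serum at an unadjusted p under 0.05 in edgeR. The one called was MMP7, a matrix protease, with 6 and 11 counts against 0 and 1. In MDA-MB-436, 5 were called higher and 1 lower in low serum, and 3 higher and 2 lower in standard serum (DESeq2 called 2 higher in low serum), beside 6.52% and 4.03% of all genes and 6.47% and 6.06%. DKK1, a secreted inhibitor of LRP5 and LRP6 that also feeds back on the pathway, rose there from 761 and 606 counts to 3051 and 2716 in low serum (log2 fold change 2.11 ± 0.06) and by 1.78 ± 0.08 in standard serum. In MDA-MB-231 the DKK1 values were 0.29 ± 0.05 and -0.34 ± 0.07, under the fold threshold. BMP4, a growth factor, rose by 2.96 ± 0.18 in MDA-MB-436 in low serum, and SOX9, a transcription factor, by 1.03 ± 0.06 and 1.16 ± 0.08. In MDA-MB-231 the SOX9 values were -0.51 ± 0.05 and -0.77 ± 0.08 (adjusted p = 4.18e-10 and 4.60e-07 in edgeR), under the fold threshold. JAG1, a Notch ligand, and MMP7 were the others called higher in low serum and CD44 in standard serum, whereas EPHB3 was called lower in both and FGF18 in standard serum. The JAG1 values were 0.47 ± 0.05 and 0.79 ± 0.07 in MDA-MB-231 (low and standard serum) and 1.03 ± 0.07 and 0.92 ± 0.08 in MDA-MB-436. Those of BMP4 were 0.73 ± 0.06 and 0.10 ± 0.10 in MDA-MB-231, and 0.83 ± 0.20 in MDA-MB-436 in standard serum. Of these, only the low serum JAG1 value in MDA-MB-436 passed the fold threshold. MMP7, CD44, EPHB3 and FGF18 are named here after their values were seen.

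Of 16 genes of the destruction complex and the Dishevelled family, which the members AXIN2, NKD1 and NKD2 act on, 0 were called in the 4 comparisons by edgeR or DESeq2. Summed over the comparisons, 16 values were higher and 17 lower at an unadjusted p under 0.05 in edgeR. An adjusted p under 0.05, the stricter threshold, was reached by 33.0% to 52.0% of all tested genes in the 4 comparisons. Over all genes 3.5% to 6.52% were called higher and 2.4% to 6.06% lower in these comparisons. At such shares a list of this size would hold few calls per comparison. The absence of calls is therefore not read as a result about the list. Among 12 Frizzled and LRP receptors, the substrates of RNF43 and ZNRF3 and their partners, 0 were called higher by edgeR or DESeq2. Over the 4 comparisons, 8 values were higher and 17 lower at an unadjusted p under 0.05 in edgeR. Beside the share of all genes given above, these counts are not read as a result about the list. FZD10 was called lower in MDA-MB-436 in both serum conditions, from 51 and 50 counts to 1 and 3 in low serum and from 55 and 57 to 3 and 0 in standard serum. FZD1 (log2 fold change -1.46 ± 0.11) and FZD3 (-1.56 ± 0.20) were called lower in MDA-MB-231 in standard serum. In MDA-MB-436 both had positive values, FZD1 0.88 ± 0.06 in low serum (adjusted p = 5.69e-17 in edgeR) and 0.20 ± 0.10 in standard serum, and FZD3 0.27 ± 0.12 and 0.60 ± 0.16 (adjusted p = 0.0044 in edgeR for the latter), none of them past the fold threshold. Among 8 R-spondins and glypicans, the ligands of LGR5 and LGR6 and cell-surface proteoglycans, GPC6 rose by 1.41 ± 0.08 in MDA-MB-231 in low serum. In MDA-MB-436, RSPO3 rose by 1.14 ± 0.21 (71 and 45 counts to 143 and 107) and RSPO2 was called lower (25 and 25 counts to 9 and 9) in low serum. In standard serum the RSPO2 counts in MDA-MB-436 went the other way, from 7 and 5 to 15 and 12, which did not pass (log2 fold change 0.92 ± 0.57). GPC3 was called lower in both conditions there (-1.64 ± 0.22 and -1.54 ± 0.24). Of the 4 TCF/LEF factors TCF7L1 was called, lower in MDA-MB-231 in standard serum with 21 and 23 counts against 3 and 3.

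For each member with a mean of at least 1 CPM in both conditions, the most similar of 12491 other genes was sought by the lower of 2 Pearson correlations of log2 CPM, over the 8 low serum and over the 8 standard serum libraries. The points share libraries and mostly follow the cell line, so the values are descriptions. TNFRSF19 was most like YAP1 (r = 0.985 and 0.969 in low and standard serum), followed by WBP4 and WDR41. LGR5 was most like DDX60L (0.980 and 0.980), then ARHGEF26 and SMYD3, and AXIN2 was most like TMED1 (0.993 and 0.984), then TNFRSF11A and TOM1L2. For NKD2 the nearest were ZNF536 (0.999 and 0.998), SMPD4 and PDPN, for RNF43 ARMCX2 (0.996 and 0.997), RNF112 and AMPD3, and for ZNRF3 RNF139 (0.998 and 0.997), BGN and TRUB1. SP5 had the weakest best match, FLNC (0.924 and 0.937), ahead of TLE5 and SLC25A39.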

How the data were processed

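Whole read pairs per gene (counts) were deposited by the authors for each serum condition, with TPM values beside them. Per the study's methods and notes, reads were aligned to hg19 (GRCh37) with STAR and counted on Gencode v19 genes; how TPM was calculated is not given in the sources used here. Symbols, biotypes and positions came from Gencode v44 lifted to GRCh37. The labels name 1 library kit for all 16 libraries, whereas the methods give a kit per serum condition; the methods were followed.

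Each serum condition was fitted separately. Genes coding for protein whose counts over its 8 libraries summed to 10 or more entered a robust quasi-likelihood model in edgeR with TMM factors and 4 groups, and p-values were adjusted (Benjamini-Hochberg) over all tested genes. A standard error is the size of the log2 fold change over the root of its F statistic. CPM used total gene counts; 0.5 was added before log2 for similarity. A group was at the floor with 3 counts or fewer in each library; ratios there use summed counts with exact 95% intervals, which cover counting error only. Neighbors are the 50 nearest tested genes whose mean reached 1 CPM. Alternatives were DESeq2, its size factors, other filters, a replicate block, limma-trend on log2(TPM + 1) and log2(TPM + 0.1), fits to 1 line, adjusted p alone, and each library left out. The code was tested on simulated data.

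The members and lists were chosen with earlier results of these data known. The text names all members, their paralogs AXIN1, LGR4 and SP8, up to 4 called genes per pathway list by smallest adjusted p, and the 3 most similar genes per member. Tables and figures were made in Python 3.11.15 (scipy 1.17.1, pandas 2.3.3, matplotlib 3.10.9, numpy 2.4.6), and models in R 4.3.3 (limma 3.58.1, DESeq2 1.42.0, edgeR 4.0.16).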

Additional observations from a re-analysis of the deposited data

Results flagged for a closer look

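Members whose POS against NEG change differed by cell line in the interaction test stand out for a second look. Values are the log2 fold change in MDA-MB-231 minus that in MDA-MB-436. In low serum LGR6 differed by 2.63, NKD2 by 2.97 and LGR5 by 1.12. In standard serum LGR6 differed by 1.80, TNFRSF19 by -1.39 and RNF43 by 3.50. The NKD2 value rests on 9 reads in the 4 MDA-MB-231 libraries, and the RNF43 value on 4 reads in MDA-MB-436 7TGP-POS. With 2 replicates per group, no single library could be tested as an outlier.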

How the results depend on the processing

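Of 101 counts of called members under alternatives, 93 stayed within 1.5 times the reported one. The counts are small, and this limit is wide for them. The low serum interaction count of 3 became 2 in DESeq2 and 4 with its size factors in edgeR, both within the limit. An exchange of genes would also stay within it, so the tally does not show that the same genes were called. With limma-trend on log2(TPM + 1) the counts were 1 (MDA-MB-231, low serum), 1 (MDA-MB-436, low serum), 0 (MDA-MB-231, standard serum) and 2 (MDA-MB-436, standard serum). With log2(TPM + 0.1) they were 2 in both conditions of MDA-MB-436; the cause was not tested. By adjusted p alone, MDA-MB-231 in low serum had 6, beside 38.9% of all tested genes. With 1 library left out, the POS against NEG counts ranged from 2 to 2 (MDA-MB-231) and 4 to 4 (MDA-MB-436) in low serum, and from 1 to 2 and 3 to 5 with standard serum. Interactions ranged from 2 to 4 in both conditions, and the cell line comparison from 8 to 9 and 6 to 8. Without replicate 1 of MDA-MB-231 7TGP-NEG in standard serum, 1 member was called. Of 930 single-member values, 882 kept their side of the thresholds, 38 calls were lost, 10 were gained and 0 called values changed direction. Among uncalled values, 21 changed sign. The 930 include members that were not called or were near 0 counts. The 38 lost calls therefore belong to a smaller base, and 882 of 930 does not measure how stable the calls were.

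The replicate numbers share no stated batch. Replicate deviations of POS and NEG correlated with r of -0.00027 (MDA-MB-231) and -0.114 (MDA-MB-436) in low serum, and of 0.213 and 0.166 under standard serum. With the replicate block the POS against NEG counts were 2 (MDA-MB-231) and 4 (MDA-MB-436) under each serum condition; in standard serum LGR6 was lost in MDA-MB-231 (adjusted p = 0.0559). The interactions and cell line comparisons kept 3, 3, 9 and 7. With the numbers crossed, MDA-MB-436 in low serum also had 4, a choice made after seeing the data. Depth limits NKD1, NKD2 and NOTUM in MDA-MB-231 and RNF43 in MDA-MB-436.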
